A study of Mus musculus with 50 samples.

Results

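Complex I genes were followed over age in gastrocnemius, a calf muscle, of 50 wild-type male mice of the inbred laboratory strain C57BL/6JRj. The members were all genes whose symbol begins with Nduf and that reached 1 TPM (a level scaled by transcript length and by the size of the library) in 8 or more mice. The table of 23880 genes held 46 Nduf symbols, and all 46 met the rule, each with 1 TPM or more in 50 of 50 mice. Of these, 38 were named as subunits and 8 were Ndufaf assembly factors. Of all genes, 12452 met the same level rule. The mitochondrially encoded subunits are not analysed here, since the table held 0 of them, nor are Ndufb1 and Coa1.

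Complex I, NADH:ubiquinone oxidoreductase, is the largest enzyme of the mitochondrial respiratory chain. It passes electrons from NADH to ubiquinone through iron-sulfur clusters in its matrix arm and pumps protons through its membrane arm. The core subunits carry out this chemistry, the accessory subunits surround and stabilize them, and assembly factors, which do not stay in the finished enzyme, help to build its modules. Muscle fibres depend on the enzyme for sustained work, and inherited defects of its subunits and of its assembly factors cause mitochondrial disease.

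The mice were 8, 18, 22, 24, 26 or 28 months old, with 8 mice at each of the first 4 ages and 9 at each of the last 2, and each mouse gave 1 stranded mRNA library. All mice were housed singly and fed the purified diet AIN-93M, and mice with overt illness or tumors had been left out by the study. Mice of 8 and 18 months had received the diet for at least 2 months, whereas mice of 22 to 28 months received it from 18 months of age or shortly after. Age and diet history therefore cannot be told apart in comparisons of 22 to 28 months with 8 months, while 28 against 22 months, 26 against 24 months and 28 against 26 months lie within one diet history. In these the older mice had also been on the diet for longer, so that age and time on the diet cannot be told apart. Total counts per mouse ranged from 13607229 to 21267375, the 38 subunits together took 77944 to 235100 counts, and the lowest count of any member in any mouse was 44, so that depth set no floor for these genes. The defining muscle fibre genes (Acta1, Ckm, Mb and Des) summed to 51397 TPM or more in every mouse, and the 4 lymphocyte markers to at most 2.31 TPM. RNA was taken from whole muscle, so that fewer cells of a type and less RNA per cell cannot be told apart.

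A pair of libraries stood apart. Replicate 3 of 8 months had the highest level of complex I genes of all 50 mice, with a subunit sum of 22398 TPM against 15086 to 17997 TPM in the other mice of 8 months. Replicate 2 of 28 months had the lowest correlation with the other mice of its age over all expressed genes (median r = 0.966, the next lowest mouse 0.975). The counts of called subunits and assembly factors at 28 against 8 months are given below with and without them.

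The comparison of ages asked whether the genes of the complex changed together, and whether subunits and assembly factors did so alike. By 28 months the members as a group were lower than at 8 months. edgeR's quasi-likelihood test, with p-values adjusted over all 12586 genes tested and a threshold of 0.01, called 32 of 38 subunits and 7 of 8 assembly factors lower, and none of the 46 higher. Over all genes tested, 18.7% were called lower and 21.0% higher in this comparison. The median log2 fold change was -0.53 for subunits (69.4% of the level at 8 months) and -0.41 for assembly factors (75.4%), beside 0.01 for all genes tested. All 46 members had a log2 fold change below 0, beside 6196 of 12586 genes tested. The largest decrease was that of Ndufc1 (-0.76). Without replicate 3 of 8 months and replicate 2 of 28 months, which were left out together after the data had been seen, 25 subunits and 2 assembly factors were called lower, with 14.8% of all genes tested. The 5 assembly factors that lost the call then had edgeR adjusted p-values between 0.0118 and 0.0561, and the medians were -0.39 for subunits and -0.32 for assembly factors.

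**Figure D1:**
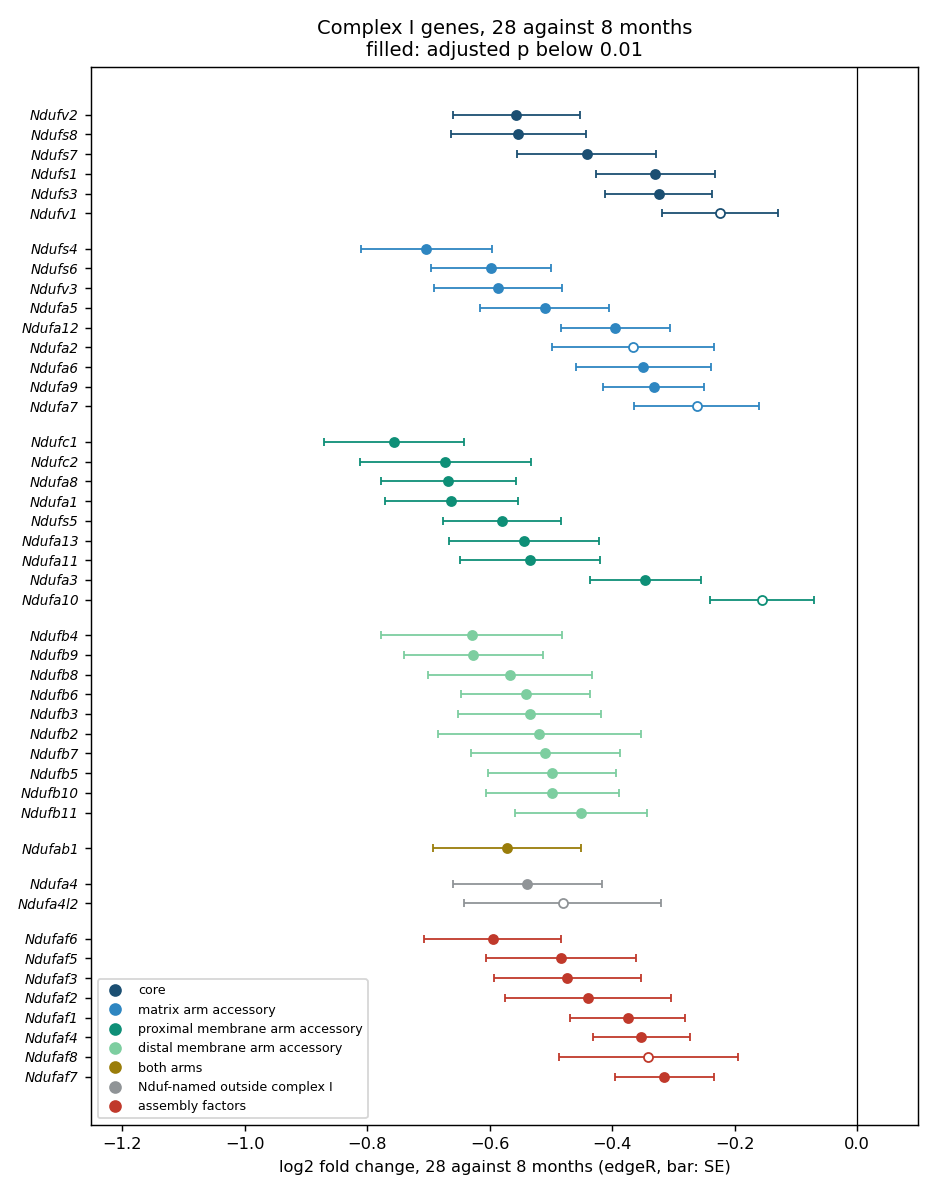
Log2 fold change with its SE (horizontal axis, edgeR) of single members between 28 and 8 months, grouped by place in the complex. Filled points passed the adjusted p threshold of 0.01: 32 subunits and 7 assembly factors. All points lie to the left of 0, with Ndufa10 and Ndufv1 nearest to it.

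The mean level was lower at each older age. For a score per mouse, the log2(TPM + 1) values of a set were averaged over its genes after each gene had been centred on its own average in all 50 mice. The subunit score was 0.19 ± 0.17 (SD, n = 8) at 8 months, 0.13 ± 0.14 (n = 8) at 18, 0.06 ± 0.14 (n = 8) at 22, 0.01 ± 0.11 (n = 8) at 24, -0.11 ± 0.19 (n = 9) at 26 and -0.24 ± 0.24 (n = 9) at 28 months. The assembly factor score took a like course, 0.16 ± 0.13, 0.11 ± 0.08, 0.07 ± 0.09, 0.03 ± 0.11, -0.14 ± 0.21 and -0.19 ± 0.20 at the same ages and numbers of mice. Means of neighbouring ages differed by less than the SD of either age in both scores, except between 24 and 26 months, where both steps were larger than the SD at 24 months. In TPM, the 38 subunits summed to 15086, 17296 and 22398 (lowest, median and highest mouse) at 8 months and to 10775, 13779.6 and 17038 at 28 months, and the 8 assembly factors to 246, 276 and 324 at 8 months and 176, 207 and 263 at 28 months. In both sets 7 of 9 mice of 28 months lay below every mouse of 8 months, and 2, replicates 3 and 6, lay within the range of 8 months.

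**Figure D2:**
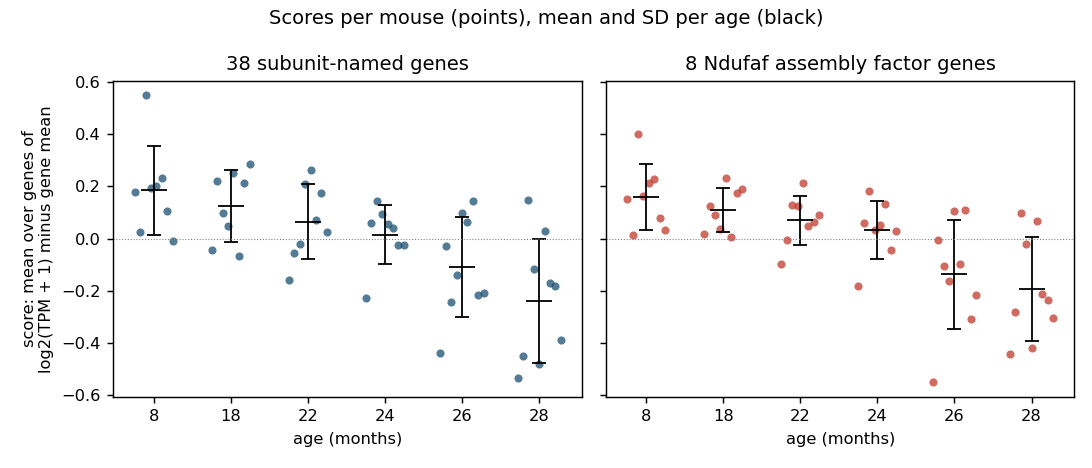
Score of the 38 subunits (left) and of the 8 Ndufaf assembly factors (right) in each mouse (points) by age in months, with mean and SD in black. The means go from 0.19 to -0.24 for subunits and from 0.16 to -0.19 for assembly factors, and the high point at 8 months is replicate 3 in both.

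No member was called in the early comparisons. At 18 against 8 months edgeR called 0 members, with 0.0318% of all genes tested called lower and 0.0397% higher. At 22 against 8 months it called 0 members, with 0.0% of all genes called lower and 0.0397% higher, and at 24 against 8 months 0 members, with 0.294% lower and 0.318% higher. At an unadjusted p under 0.05 the same test had 0, 6 and 20 of 46 members lower, respectively, beside 1.56%, 4.61% and 11.0% of all genes, and DESeq2 and limma also called 0 at these ages. Most members had a log2 fold change below 0 at 18 months, 44 of 46, beside 6358 of 12586 genes tested. The median was -0.07 for subunits and -0.07 for assembly factors. The members varied together, so that these are not 44 separate observations. With single mice of 8 months left out, the mean subunit score at 8 months lay between 0.13 and 0.21, beside 0.13 at 18 months. The medians were -0.15 and -0.13 at 22 months and -0.21 and -0.15 at 24 months.

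At 26 against 8 months edgeR called 15 subunits and 3 assembly factors (Ndufaf4, Ndufaf6 and Ndufaf7) lower, with 8.54% of all genes called lower and 9.84% higher. Leaving out replicate 3 of 8 months gave 4 subunit calls and 1 assembly factor call, and leaving out replicate 1 of 26 months, the mouse with the lowest subunit score of its age (-0.44), left 6 and 1. Replicate 1 of 8 months and replicates 3, 8 and 9 of 26 months, left out one at a time, left 9, 9, 8 and 8 subunits, and without replicate 6 of 26 months 1 assembly factor was called, as without replicate 1 of 8 months. Within the later diet history, 28 against 22 months, 19 subunits and 3 assembly factors (Ndufaf3, Ndufaf6 and Ndufaf7) were called lower, with 11.5% of all genes called lower and 16.2% higher. Leaving out replicate 1, 2 or 5 of 28 months left 9, 8 or 8 subunits and 0 assembly factors called, and leaving out replicate 3 of 28 months gave 26 and 5. Without replicate 9 of 28 months or replicates 4, 5, 6 or 8 of 22 months, 12, 12, 10, 10 or 11 subunits were called. Without replicate 8 of 28 months 0 assembly factors were called, and without replicates 3, 6, 7 or 8 of 22 months 1 was. The share of all genes called was not kept for the fits with a single mouse left out. These counts therefore do not show whether the members moved more than genes at large. At 26 against 24 months and at 28 against 26 months edgeR called 0 members, and of all genes it called 0.0% lower and 0.0% higher in each. The medians of these last steps were -0.11 and -0.18 for subunits and -0.14 and -0.09 for assembly factors, and at an unadjusted p under 0.05 they held 1 and 8 of 46 members lower, all of them subunits, beside 6.58% and 5.12% of all genes. DESeq2 and limma called 0 members in them as well.

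**Figure D3:**
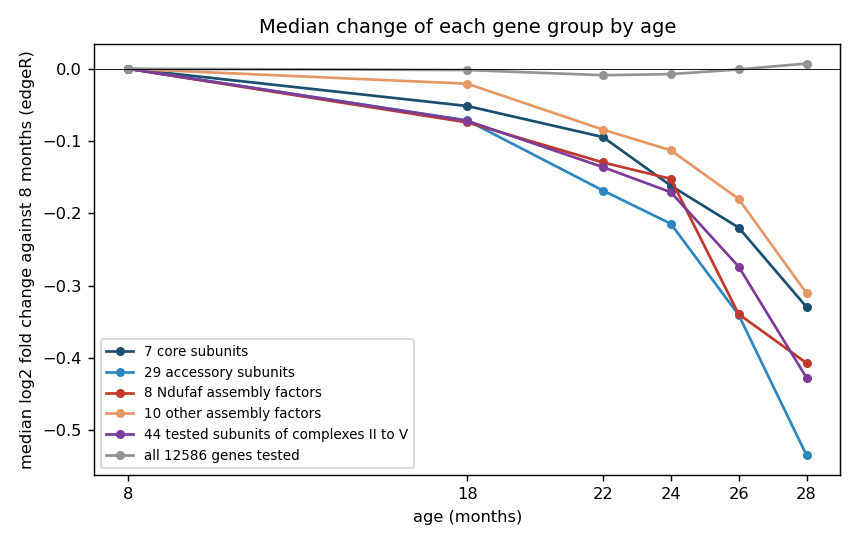
Median log2 fold change against 8 months (vertical axis, edgeR) by age in months for core and accessory subunits, both sets of assembly factors, the tested subunits of complexes II to V, and all 12586 genes tested. Accessory subunits end lowest, at -0.53, Ndufaf genes at -0.41 and core subunits at -0.33, while all genes stay within 0.01 of 0.

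The nuclear core subunits had a median log2 fold change of -0.33 between 28 and 8 months, against -0.53 for the accessory subunits. Of the accessory subunits 26 of 29 were called lower by edgeR, beside 18.7% of all genes tested. The median transcript length was 1046 bases for core and 754 for accessory subunits. With the length trend described below removed, their medians were -0.22 and -0.31. The difference between these groups was not tested. Ndufv1, which binds NADH and passes its electrons on through a flavin, had 569, 625 and 796 TPM (lowest, median, highest) at 8 months and 439, 559.9 and 757 TPM at 28 months. These ranges overlapped widely, and the log2 fold change did not pass the test (-0.22 ± 0.09 SE, edgeR adjusted p = 0.0427). Its iron-sulfur partner Ndufv2 had 440.0, 509 and 704 TPM at 8 months and 292, 381 and 469.9 TPM at 28 months. Ndufv2 fell by 0.56 on the log2 scale (SE 0.10, edgeR adjusted p = 2.43e-05), and 7 of 9 mice of 28 months lay below every mouse of 8 months.

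Ndufs1, an iron-sulfur subunit of the module that takes up electrons, had 365, 438 and 495 TPM at 8 months and 272, 357 and 488 TPM at 28 months, and Ndufs3, of the quinone module, had 565, 609 and 833 TPM and 434, 530.5 and 623 TPM. Both were called lower, with log2 fold changes of -0.33 and -0.32. Both lost the call without replicate 3 of 8 months, with only the 2 ages in the fit and with the length trend described below removed. They also lost it without the pair of mice that stood apart (edgeR adjusted p = 0.0355 and 0.0352). Ndufs1 lost it too in both limma fits (limma adjusted p = 0.0213 in each) and without replicate 1, 2 or 5 of 28 months. Ndufs7 and Ndufs8 carry the last iron-sulfur clusters before ubiquinone. Ndufs7 had 445, 544 and 688 TPM at 8 months and 303, 429 and 585 TPM at 28 months, with a log2 fold change of -0.44 ± 0.11 (edgeR adjusted p = 0.00116). Its call was lost with only the 2 ages in the fit (edgeR adjusted p = 0.0157), without the pair of mice that stood apart (0.0175) and with the length trend removed (-0.22, 0.0145). Ndufs8 had 181, 203 and 268 TPM at 8 months and 117, 151 and 207 TPM at 28 months, with a log2 fold change of -0.55 ± 0.11 (edgeR adjusted p = 5.88e-05). In Ndufs7 and Ndufs8 7 of 9 mice of 28 months lay below all mice of 8 months, and the highest mouse of 28 months lay within the range of 8 months.

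Accessory subunits were grouped by their place in the complex. In the matrix arm 7 of 9 were called lower (median log2 fold change -0.40), in the proximal membrane arm 8 of 9 (-0.58) and in the distal membrane arm, the Ndufb genes, 10 of 10 (-0.53). Of all genes tested 18.7% were called lower. With the length trend removed these medians were -0.23, -0.37 and -0.30. These calls rest in part on the pair of mice that stood apart. Without them Ndufa6 and Ndufa9 of the matrix arm lost the call (edgeR adjusted p = 0.0916 and 0.0145). So did Ndufa3 of the proximal (0.0245) and Ndufb2 of the distal membrane arm (0.0768). Ndufa6, Ndufa3 and Ndufb2 are named for this loss and not by the naming rule. The largest decrease of all members was that of Ndufc1 (chr3:51404677-51408988, minus strand, GRCm38), a small subunit of the proximal membrane arm. It had 386, 415 and 610.5 TPM at 8 months, 358, 402 and 476 at 18, 319, 395 and 411 at 22, 308, 370.3 and 417 at 24, 229, 313 and 394 at 26 and 215, 260.2 and 342 TPM at 28 months. All 9 mice of 28 months lay below all 8 mice of 8 months, and the log2 fold change was -0.76 ± 0.11 (edgeR adjusted p = 1.13e-06). Ndufs4 (chr13:114287795-114388258, minus strand), a matrix arm subunit whose loss in mice gives a model of Leigh syndrome, had 180.3, 213 and 286 TPM at 8 months and 103, 146 and 177 TPM at 28 months, likewise without overlap. Its log2 fold change was -0.70 ± 0.11 (edgeR adjusted p = 1.23e-06). Only 1 other member had no overlap between these ages, Ndufs6 of the matrix arm, which the naming rule does not hold and which was picked after its values were seen. These 3 of 46 stand beside 1.85% of all genes tested whose mice of 28 months all lay below those of 8 months.

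Of the other large decreases, Ndufc2, which sits beside Ndufc1, had 248, 305 and 425 TPM at 8 months and 135, 222 and 296 TPM at 28 months (-0.67 ± 0.14, edgeR adjusted p = 0.000106). Ndufa8, a subunit of the intermembrane space side, had 314, 345 and 466 TPM and 176, 249 and 326 TPM (-0.67 ± 0.11, edgeR adjusted p = 4.65e-06). The X-linked Ndufa1 had 298, 350.3 and 506 TPM and 189.9, 243 and 312 TPM (-0.66 ± 0.11, edgeR adjusted p = 3.76e-06). In Ndufa8 and Ndufa1 8 of 9 mice of 28 months lay below every mouse of 8 months, and in Ndufc2 7 of 9 did. Ndufb4, of the distal membrane arm, had 273, 399.7 and 509.6 TPM and 199.8, 272 and 332 TPM, with 5 of 9 mice below all mice of 8 months (-0.63 ± 0.15, edgeR adjusted p = 0.000445). Ndufab1, the mitochondrial acyl carrier protein, which is bound in both arms, had 232, 254 and 419 TPM and 143, 192 and 268 TPM (-0.57 ± 0.12, edgeR adjusted p = 0.000123). The highest mouse of 8 months was replicate 3 in each of these genes but Ndufb4.

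The accessory subunits that moved least were Ndufa10, Ndufa7 and Ndufa9. Ndufa10, a kinase-like protein of the proximal membrane arm, had 298, 339 and 439.9 TPM at 8 months and 279, 318 and 407 TPM at 28 months, with nearly the same range (-0.16 ± 0.08, edgeR adjusted p = 0.116). Ndufa7, of the matrix arm, had 294, 404 and 461 TPM and 309.9, 339.9 and 393 TPM, with no mouse of 28 months below all mice of 8 months (-0.26 ± 0.10, edgeR adjusted p = 0.027). Ndufa9, a subunit of the dehydrogenase family at the junction of the arms, had 274, 324 and 391 TPM and 219.9, 269 and 326 TPM. It was called lower, with a log2 fold change of -0.33 ± 0.08 (edgeR adjusted p = 0.000774), and lost the call with only the 2 ages in the fit (0.0147) and without the pair of mice that stood apart (0.0145). The 6 subunit-named genes that did not pass the test included Ndufv1, Ndufa10, Ndufa7 and Ndufa4l2. A pair of Nduf names stands for proteins that are not counted as subunits of complex I in current structures. Ndufa4, now assigned to cytochrome c oxidase and the most abundant member, had 1225, 1614 and 2039 TPM at 8 months and 865, 1251 and 1454 TPM at 28 months (-0.54 ± 0.12, edgeR adjusted p = 0.000276). Its hypoxia-inducible paralogue Ndufa4l2, the least abundant member, had 8.58, 11.6 and 16.0 TPM and 6.52, 7.79 and 14.1 TPM (-0.48 ± 0.16, edgeR adjusted p = 0.011). Ndufa4l2 lay near the threshold. It was called lower with upper-quartile scaling (edgeR adjusted p = 0.00809), with the replicate block (0.00969), by DESeq2 (DESeq2 adjusted p = 0.00866) and in 5 fits with a single mouse left out. Without Ndufa4 and Ndufa4l2, 31 of 36 subunits were called lower, beside 18.7% of all genes tested.

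The 8 Ndufaf assembly factors were expressed far below the subunits, with means over the 50 mice of 14.3 to 57.7 TPM, whereas the subunits other than Ndufa4l2 had means of 62.4 to 1381 TPM. Ndufaf3, Ndufaf4 and Ndufaf6 act early, on the quinone module and its neighbour in the membrane. Ndufaf6 (chr4:11051045-11076205, minus strand) had 32.7, 41.8 and 44.1 TPM at 8 months, 27.9, 34.9 and 40.8 TPM at 24 months and 23.0, 26.2 and 36.2 TPM at 28 months. It had the largest decrease of the assembly factors (-0.60 ± 0.11, edgeR adjusted p = 2.83e-05), and 7 of 9 mice of 28 months lay below all mice of 8 months. Ndufaf3 had 15.7, 20.2 and 26.2 TPM at 8 months and 12.4, 13.6 and 19.6 TPM at 28 months (-0.47 ± 0.12, edgeR adjusted p = 0.000964). Ndufaf4 took another course: 26.4, 32.8 and 41.0 TPM at 8 months, 27.6, 31.1 and 37.6 at 18, 22.2, 26.9 and 31.4 at 22, 24.6, 27.1 and 32.0 at 24, 23.4, 24.4 and 32.8 at 26 and 22.3, 26.4 and 35.7 TPM at 28 months. From 22 months on the medians lay between 24.4 and 27.1 TPM. Between 28 and 8 months Ndufaf4 was called lower (-0.35 ± 0.08, edgeR adjusted p = 0.000268), while between 28 and 22 months its log2 fold change was -0.03 ± 0.08 (edgeR adjusted p = 0.753), the smallest of all 46 members in that comparison.

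Some assembly factors modify other proteins. Ndufaf5, which hydroxylates Ndufs7, had 53.2, 64.9 and 75.4 TPM at 8 months and 36.7, 46.0 and 63.7 TPM at 28 months (-0.48 ± 0.12, edgeR adjusted p = 0.000996). Its partner Ndufaf8 had 20.2, 26.7 and 30.5 TPM at 8 months, 16.8, 26.6 and 33.6 TPM at 26 months and 16.8, 19.0 and 29.3 TPM at 28 months. It was the assembly factor that did not pass the test (-0.34 ± 0.15, edgeR adjusted p = 0.0456), although 6 of 9 mice of 28 months lay below all mice of 8 months. Ndufaf7, a mitochondrial methyltransferase, had 14.3, 15.3 and 16.9 TPM at 8 months and 9.95, 13.0 and 16.2 TPM at 28 months (-0.31 ± 0.08, edgeR adjusted p = 0.00115). Ndufaf1, of the complex that builds the membrane arm, had 42.0, 55.2 and 62.5 TPM and 32.4, 43.8 and 53.5 TPM (-0.37 ± 0.09, edgeR adjusted p = 0.000897). Ndufaf2, a paralogue of Ndufa12 that binds late intermediates, had 19.8, 21.5 and 28.8 TPM and 12.0, 16.9 and 22.8 TPM (-0.44 ± 0.14, edgeR adjusted p = 0.0059), a call that was lost when any of 7 single mice was left out and with the length trend removed. With only the 2 ages in the fit Ndufaf1, Ndufaf2 and Ndufaf7 lost the call, and without the pair of mice that stood apart these and Ndufaf3 and Ndufaf5 did.

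**Figure D4:**
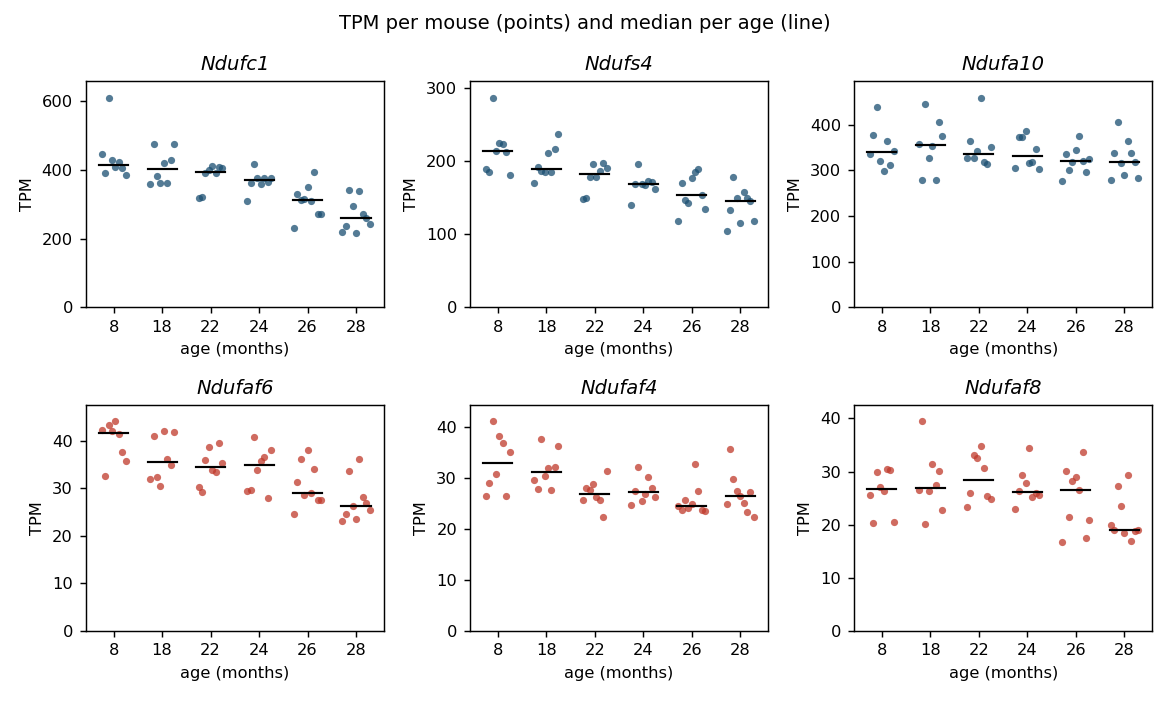
TPM in each mouse (points) and median per age (line) by age in months for 3 subunits (blue) and 3 assembly factors (red), each axis starting at 0. Ndufc1 and Ndufs4 go down with no overlap between 8 and 28 months, Ndufa10 keeps nearly the same range, and Ndufaf4 is at 22 to 28 months near one level.

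Subunits and assembly factors were compared over the 6 ages by their shares and medians. Their summed TPM kept a similar ratio, with medians of 63.0, 63.7, 62.9, 61.9, 64.0 and 61.2 from the youngest to the oldest age, and the range at 28 months (58.6 to 66.6) overlapped that at 8 months (59.0 to 69.1). The subunit score minus the assembly factor score was 0.03 ± 0.06 (SD, n = 8) at 8 months and -0.04 ± 0.08 (n = 9) at 28 months, with 5 of 9 mice of 28 months below all mice of 8 months. From 24 to 26 months the median log2 step was -0.11 for subunits and -0.14 for assembly factors, and from 26 to 28 months -0.18 and -0.09. No test was made of these differences between the sets. Among mice of the same age the sets varied together: after the mean of each age was taken off, the mean of the subunits and that of the assembly factors correlated with r = 0.911 over 50 mice. Single genes shared this less. The correlation of a member with the mean of the other subunits had a median of 0.881 over subunits (range 0.558 to 0.975) and 0.689 over assembly factors (0.299 to 0.795), lowest for Ndufaf4 among assembly factors and for Ndufa10 among subunits. The points share their libraries and depth, and these correlations are descriptions.

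The median coefficient of variation of the subunits was 14.7% at 8 months, 9.24% at 24 months, 14.2% at 26 months and 18.0% at 28 months, and that of the assembly factors was 13.7%, 12.0%, 16.7% and 17.3%. The SD of the assembly factor score, given above, was 0.21 at 26 and 0.20 at 28 months. At 28 months replicate 1 had 36 of 38 subunits and 8 of 8 assembly factors below every mouse of 8 months, and replicate 3 had 3 and 0. Replicate 6 also had few, 8 subunits and 1 assembly factor, while the other 6 mice had between 25 and 35 subunits below. The share of all genes tested below every mouse of 8 months is not given for single mice. These counts therefore describe the mice and do not set the members apart from other genes.

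Transcript length moved with the result. The mean transcript length of a gene (GENCODE vM21 on GRCm38) had a median of 810 bases for subunits, 1124 for assembly factors and 2400 for the 11829 genes tested with a length. Over these genes, length and log2 fold change between 28 and 8 months had a Spearman rho of 0.259 across genes, which are not independent. The shortest decile of genes (193 to 1008.4 bases), with 26 of 38 subunits and 3 of 8 assembly factors, had a median log2 fold change of -0.23 and 35.0% called lower, and the longest decile had 0.20 and 7.19%. With a smooth trend on length taken out of each library, a step added after the data were seen, the medians were -0.29 for subunits and -0.28 for assembly factors, and 27 and 6 were called lower, with 17.5% of all genes. Ndufs4 kept a log2 fold change of -0.63, Ndufc1 of -0.53, Ndufaf6 of -0.43 and Ndufaf4 of -0.33, while Ndufa7 came to 0.01 and Ndufa10 to -0.01. At 28 against 22 months the same step left 10 subunits and 0 assembly factors called lower by edgeR, with 10.8% of all genes. All 46 members lay below the median log2 fold change of the genes in their own length decile. The part of RNA quality or library preparation in the trend on length was not tested.

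**Figure D5:**
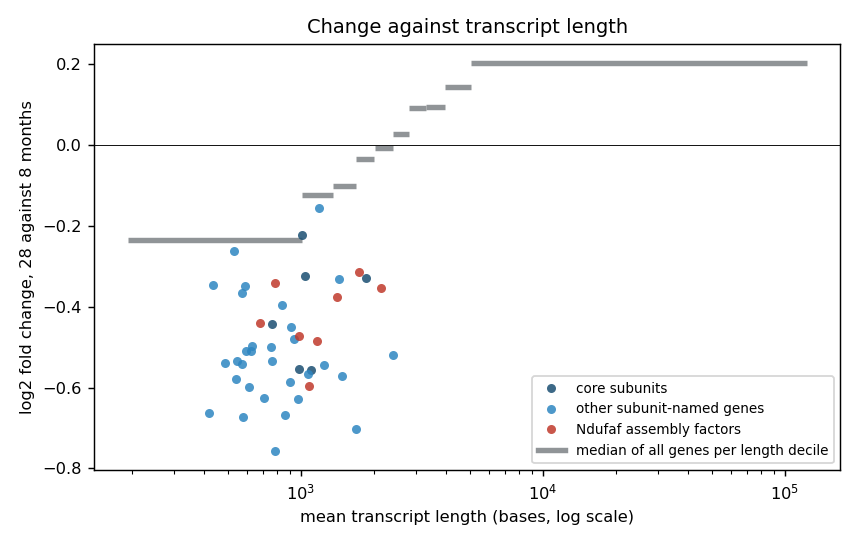
Log2 fold change between 28 and 8 months (vertical axis) against mean transcript length in bases (log scale) for core subunits, other subunit-named genes and Ndufaf genes, with grey bars for the median of each length decile of the 11829 genes. The bars go from -0.23 to 0.20 with length, and every point lies below the bar of its own length.

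Other genes of the pathway were read from lists. Of 10 complex I assembly factors with other names, 6 were called lower between 28 and 8 months, beside 18.7% of all genes tested. Their median log2 fold change was -0.31. Timmdc1, which anchors early membrane arm intermediates, had 37.1, 39.7 and 49.7 TPM at 8 months and 19.8, 25.3 and 34.5 TPM at 28 months, without overlap (-0.72 ± 0.10, edgeR adjusted p = 1.34e-07). Tmem126a, Tmem126b, Dmac1, Dmac2 and Ecsit were also called lower, with log2 fold changes of -0.40, -0.51, -0.39, -0.43 and -0.24. With the length trend removed 3 of the 10 were called lower, beside 17.5% of all genes. Tmem126a, Dmac1 and Ecsit lost the call (edgeR adjusted p = 0.0206, 0.0275 and 0.0173), and Ecsit also did with only the 2 ages in the fit. Acad9 (-0.12), which works with Ndufaf1 and Ecsit, the iron-sulfur factor Nubpl (-0.15), Foxred1 (-0.13) and Tmem186 (0.08) did not pass the test. Of 45 subunits of complexes II to V chosen by symbol, 44 were tested and 32 were called lower, beside 18.7% of all genes tested, with a median of -0.43. With the length trend removed 17 of 43 were, beside 17.5% of all genes, with a median of -0.23.

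Among 6 regulators of mitochondrial genes, Esrra, the nuclear receptor that drives respiratory chain genes, had 87.9, 104 and 116 TPM at 8 months and 38.4, 65.9 and 114 TPM at 28 months and was called lower (-0.71 ± 0.16, edgeR adjusted p = 0.000245). Its coactivator Ppargc1a had 12.6, 21.0 and 56.4 TPM and 23.9, 35.4 and 164 TPM, and the log2 fold change of 0.77 ± 0.34 did not pass the test (edgeR adjusted p = 0.0523). Nrf1 (0.39 ± 0.08) and Gabpa (0.34 ± 0.09), activators of nuclear genes for respiratory chain subunits, were called higher, with edgeR adjusted p-values of 0.000106 and 0.00181, and Gabpa lost the call without replicate 2 of 28 months. Yy1 (0.21) and Ppara (0.46) did not pass the test. At 28 against 22 months edgeR called Ppargc1a (1.17, adjusted p = 0.00597), Yy1 (0.33, 0.00683) and Gabpa (0.41, 0.00054) higher and Esrra (-0.61, 0.00213) lower. Nrf1 (0.22, 0.0228) and Ppara (0.78, 0.0284) did not pass it there. Over all genes, 11.5% were called lower and 16.2% higher. At 28 months replicate 1 stood apart in Ppargc1a and replicate 2 in Yy1 and Gabpa. With the length trend removed Yy1 came to -0.012 between 28 and 8 months (edgeR adjusted p = 0.928). For 28 against 22 months no values of the regulators with that trend removed are given.

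Some marker genes of other cells and states moved with age as well, and the lists not given here follow with the processing. Of all genes tested, 18.7% were called lower and 21.0% higher between 28 and 8 months. All 4 tested of 5 denervation markers were called higher between 28 and 8 months, and the 5 summed to 12.8 to 21.1 TPM at 8 months and 27.1 to 80.1 TPM at 28 months, with the acetylcholine receptor subunit Chrng near 0 at 8 months. Of 5 macrophage markers 2 were called higher (sums of 40.3 to 79.4 and 65.7 to 149.9 TPM), and of 4 adipocyte markers 3 were called lower (30.6 to 148 and 23.6 to 50.5 TPM). Of 6 slow fibre markers 0 were called by edgeR, and their sums were 340 to 1977 TPM at 8 months and 666 to 2936 TPM at 28 months. The part of these changes in the lower levels of complex I genes was not tested.

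RefSeq gives the sequence around the start of 40 of the 46 members (GRCm38.p6, 250 bases before to 50 bases after the start), and these windows were searched on both strands for the sites of the regulators above. The YY1 site AAGATGGCG was in 6 of 40 members (15.0%), in 3.61% of the windows of the genes tested and in 1.64% of all 27025 genes with a window. The palindromic NRF1 site was in 3 members (7.5%, beside 2.33% of genes tested and 1.07% of all), the GABPA site CCGGAAG in 6 (15.0%, beside 19.6% and 9.93%) and the ESRRA site TNAAGGTCA in 1 (2.5%, beside 0.891% and 1.43%). No matches of different motifs overlapped. All 6 YY1 matches lay after the start, 10 to 35 bases from it, and their letters hold an ATG. The matches of YY1, NRF1 and ESRRA are shown, chosen after the counts were seen because their share in the members was above that in the genes tested, each as 30 bases in the direction of the gene, with the match in capitals. The YY1 matches follow, of Ndufc1 and Ndufs4, the largest decreases, of Ndufs6, Ndufs7 and Ndufa9, and of the assembly factor Ndufaf8 (chr3:51408914-51408943, chr13:114388045-114388074, chr13:73328433-73328462, chr10:80249463-80249492, chr6:126849096-126849125 and chr11:120098934-120098963, in this order).
Ndufc1: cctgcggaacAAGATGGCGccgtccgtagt
Ndufs4: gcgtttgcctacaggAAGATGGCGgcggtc
Ndufs6: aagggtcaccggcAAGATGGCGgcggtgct
Ndufs7: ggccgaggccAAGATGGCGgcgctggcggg
Ndufa9: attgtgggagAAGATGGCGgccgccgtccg
Ndufaf8: ggcagggcccAAGATGGCGgcgccctcgag
The NRF1 matches, which read the same on both strands, were in the subunit Ndufa11 and in 2 assembly factors, Ndufaf4 and Ndufaf5 (chr17:56717692-56717721, chr4:24897960-24897989 and chr2:140170652-140170681).
Ndufa11: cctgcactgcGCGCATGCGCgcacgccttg
Ndufaf4: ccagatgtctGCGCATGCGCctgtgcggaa
Ndufaf5: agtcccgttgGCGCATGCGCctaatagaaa
The ESRRA match lay 57 bases before the start of Ndufb4 (chr16:37654406-37654435).
Ndufb4: ttcctgagccTGAAGGTCAgactcgagagg
The members with a YY1 match ranged in log2 fold change between 28 and 8 months from -0.76 in Ndufc1 to -0.33 in Ndufa9, and the members with an NRF1 match from -0.53 in Ndufa11 to -0.35 in Ndufaf4. A match is a description of the letters in the window, not evidence of a bound site.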

How the data were processed

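Stranded mRNA libraries of the gastrocnemius of 50 mice, 1 per mouse, were grouped by the age in the labels. Per the Methods, the authors trimmed reads with Cutadapt 1.9.1 and assigned them with kallisto 0.43.1, using the strand, to protein-coding transcripts of GRCm38. Reads that fit several transcripts were shared evenly, so near-identical copies carry an uncertainty not shown in the values. The estimated counts, as deposited by the authors, are whole numbers summed per gene without normalization. The TPM values, as deposited by the authors, are scaled by transcript length and library size.

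The main test was edgeR's quasi-likelihood test (edgeR 4.0.16 under R 4.3.3) on the counts, with TMM scaling and a single model for the 50 mice. Genes needed 1 CPM in at least 8 mice, p-values were adjusted by Benjamini-Hochberg and the threshold was 0.01. The test was first tried on simulated data. Fold changes and SE come from this fit unless another is named beside them. Alternatives used DESeq2 1.42.0, limma 3.58.1 on log2(TPM + 1) or log2(TPM + 0.1), other scalings, no filter, 2 ages alone, a block on replicate number, and each mouse left out in turn. Summaries were made with pandas 2.3.3 and numpy 2.4.6. Each mouse is a separate animal, no mice were pooled, and counts of 2 mice of one age differed by at least 6.44 times the counting variance.

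The members, the lists and the comparisons were chosen with earlier results of these data known. Genes were named by a rule: all Ndufaf members, the 7 nuclear core subunits, the 6 other subunits with the largest and the 3 with the smallest change between 28 and 8 months, Ndufa4, Ndufa4l2 and Ndufab1, the other assembly factors and 6 regulators. Marker lists also covered fast and IIA fibres, fibroblasts, endothelial, Schwann and erythroid cells. Between 28 and 8 months, the fast list had 1 gene lower and 2 higher of 4, IIA 0 of 1, fibroblast 2 lower of 4, endothelial 0 of 4, Schwann cell 1 lower of 4, erythroid 1 higher of 5 and muscle fibre 1 higher of 4. Beside these, 18.7% of all genes tested were called lower and 21.0% higher. The values of 1 member are not reported here, though it is counted in the sets.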

Additional observations from a re-analysis of the deposited data

Results flagged for a closer look

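In 17 of 200 groups of 8 or 9 mice, the highest or lowest mouse lay farther from the others than Dixon's 95% critical value allows. Chance flags about 1 in 20 independent groups. These groups share mice and hold genes that vary together, so that the 17 are not read against that rate. Replicate 3 of 8 months was high in the subunit score (0.55) and in 7 subunits: it had 466 TPM of Ndufa8, 419 TPM of Ndufab1, 610.5 TPM of Ndufc1, 833 TPM of Ndufs3, 286 TPM of Ndufs4, 268 TPM of Ndufs8 and 704 TPM of Ndufv2. Replicate 5 of 22 months stood apart with 459 TPM of Ndufa10 and 821 TPM of Ndufv1. Replicate 1 of 24 months had a subunit score of -0.23, and replicate 5 of 24 months had 451 TPM of Ndufa7. At 26 months replicate 6 had 32.8 TPM of Ndufaf4 and replicate 1 had 252 TPM of Ndufs1. At 28 months replicate 2 had 40.3 TPM of Gabpa and 46.6 TPM of Yy1, and replicate 1 had 164 TPM of Ppargc1a.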

How the results depend on the processing

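At 28 against 8 months, where edgeR called 32 subunits and 7 assembly factors lower, other scalings, no filter, DESeq2, limma and the replicate block gave 29 to 33 subunits and 6 or 7 assembly factors. Of all genes these fits called from 1733 (limma on log2(TPM + 0.1), of 12452) to 2760 (upper-quartile scaling, of 12586) lower. Without the filter 2183 of 22116 were. With only the 2 ages in the fit, 25 and 4 were called lower. That fit called 1617 of 12075 genes lower, beside 2349 of 12586 in the main fit. Without both replicate 2 of 28 months and replicate 3 of 8 months (chosen after seeing the data) 25 and 2 were, with 14.8% of all genes tested. At 26 against 8 months (15 and 3), the 2 ages alone gave 7 subunits, the joint removal 6 subunits and 1 assembly factor, and the replicate block 5 assembly factors. At 28 against 22 months (19 and 3), no filter gave 12 and 1, the 2 ages alone 7 and 1, removal of the length trend (also chosen after seeing the data) 10 and 0, and the joint removal 1 assembly factor. Among the changed fits of these comparisons, a share of all genes is given only for the length trend at 28 against 22 months (10.8% lower). The replicate block called 1 assembly factor at 24 against 8 months, where the fit without it called 0. Among single genes at 28 against 8 months, removal of the length trend reversed Ndufa7 to 0.0096 (edgeR adjusted p = 0.880) and Yy1 to -0.012. The cause of these changes was not tested.

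With each mouse left out in turn, subunits called lower ranged from 4 to 18 at 26 against 8 months, from 27 to 35 at 28 against 8 months and from 8 to 26 at 28 against 22 months. Assembly factors ranged from 1 to 4, from 6 to 7 and from 0 to 5. In the other comparisons 0 members were called in each of these fits. No share over all genes was kept for them. The labels do not say that replicate numbers are shared between ages. Of 121 pairs of mice with the same number 42 had deviations correlated above 0.1, and 9 mice correlated best with a mouse of their own number, so that the replicate block was not read as a pairing. At 28 against 8 months it called 39 members, 38 of them among the 39 of the fit without it. A planned fit without mitochondrially encoded genes was not run, since the table held 0 of them.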
